A study of Mus musculus with 28 samples.

Results

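The cyclin-dependent kinase inhibitors of the mouse were followed in developing molars as 7 genes, chosen by name from the 52636 genes of a table of RNAseq read counts: Cdkn1a, Cdkn1b, and Cdkn1c of the CIP/KIP family, and Cdkn2a, Cdkn2b, Cdkn2c, and Cdkn2d of the INK4 family. Each library is 1 first molar tooth germ of a C57BL/6JOlaHsd mouse embryo with no treatment, dissected with little surrounding tissue, and labelled E13.5, E14.5, or E16.5. These stages are called E13 (bud stage), E14 (cap stage), and E16 (bell stage) here, with 7 teeth each from 7, 6, and 5 embryos. A second table holds estimated read counts from salmon, which matches reads to known transcripts, for the E13 and E16 teeth and 6 wild type E15 lower first molars of 6 embryos. Of the 7 genes, the salmon table lists 5, without Cdkn2a and Cdkn2d. For 1 further labelled E15 tooth no column was at hand, and it is not analysed here.

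Cells enter the DNA replication phase when cyclin-dependent kinases phosphorylate the retinoblastoma protein, which then releases the E2F transcription factors. INK4 proteins bind Cdk4 and Cdk6 and keep them from their D-type cyclins, whereas CIP/KIP proteins bind complexes of cyclins with kinases more broadly, including those with Cdk2. In teeth, Cdkn1a is known as a marker of the enamel knot, a signaling center of non-dividing epithelial cells that appears with the cap stage.

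The depth was 17814073 to 27115729 counted reads per library in the table of read counts, which was made with HTSeq, and 17572427 to 22792374 estimated reads in the E15 libraries. At E16, the left tooth of embryo 3 stood apart, with a median absolute log2 deviation from the other teeth of its stage of 0.537, where no other HTSeq library exceeded 0.163. This tooth also held the lowest normalized read count of its stage for all 7 inhibitor genes in the HTSeq table. In the salmon table its Cdkn1a value of 792 was the median of the E16 teeth, where the lowest was 664. The right tooth of embryo 7 at E16 had the lowest TMM factor, a scaling factor of edgeR, of the HTSeq libraries, at 0.850. The E15 libraries fell into 3 with 0.471% to 1.99% and 3 with 6.66% to 7.82% of their reads on mitochondrial genes, and their labels describe a dissection and processing of their own, so stage and collection cannot be told apart for E15. The summed normalized read count of 7 dental epithelium markers ranged from 14854 to 22617 at E13, from 25173 to 34172 at E14, and from 40469 to 69089 at E16, and that of 7 dental mesenchyme markers from 67177 to 72237, from 57083 to 66129, and from 23662 to 39451. The libraries are bulk samples, in which fewer cells of a type and less RNA per cell cannot be told apart.

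Cdkn1a (p21), the inhibitor that p53 induces after DNA damage, had in the HTSeq counts the largest fold change of the 6 tested genes from bud to cap stage, with Cdkn2b close behind. The salmon table, which has no E14 teeth, gave lower fold changes for Cdkn1a and put Cdkn2b above it, at log2 fold changes of 1.42 against 1.30 from E13 to E16 and 1.89 against 0.75 from E13 to E15. It lies on chromosome 17 from 29090976 to 29100727 on the plus strand of GRCm38. Its normalized read count, which is the count divided by a size factor of the library, was 76.3 at the lowest, 91.0 at the median, and 207 at the highest in the E13 teeth. In the E14 teeth it was 378, 480, and 639, and in the E16 teeth 328, 528, and 720. Every E14 and E16 tooth was above every E13 tooth, while the E14 and E16 teeth overlapped throughout. The means were 114 ± 45.5 (SD, n = 7) at E13, 488 ± 89.8 at E14, and 563 ± 135 at E16. On average the E14 teeth had 4.26-fold the level of the E13 teeth, a log2 fold change of 2.09 with an SE of 0.20 (edgeR quasi-likelihood test, adjusted p = 3.5e-08). Between E14 and E16 the log2 fold change was 0.20 with a 95% interval from -0.18 to 0.58 (edgeR, adjusted p = 0.44). The E13 to E14 step exceeded the E14 to E16 step by 1.89 on the log2 scale (edgeR contrast of the 2 steps, adjusted p = 0.00018). The salmon table, without E14 teeth, could not repeat this contrast. There Cdkn1a still rose from E15 to E16, by 0.55 on the log2 scale (edgeR, adjusted p = 0.0030).

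**Figure D1:**
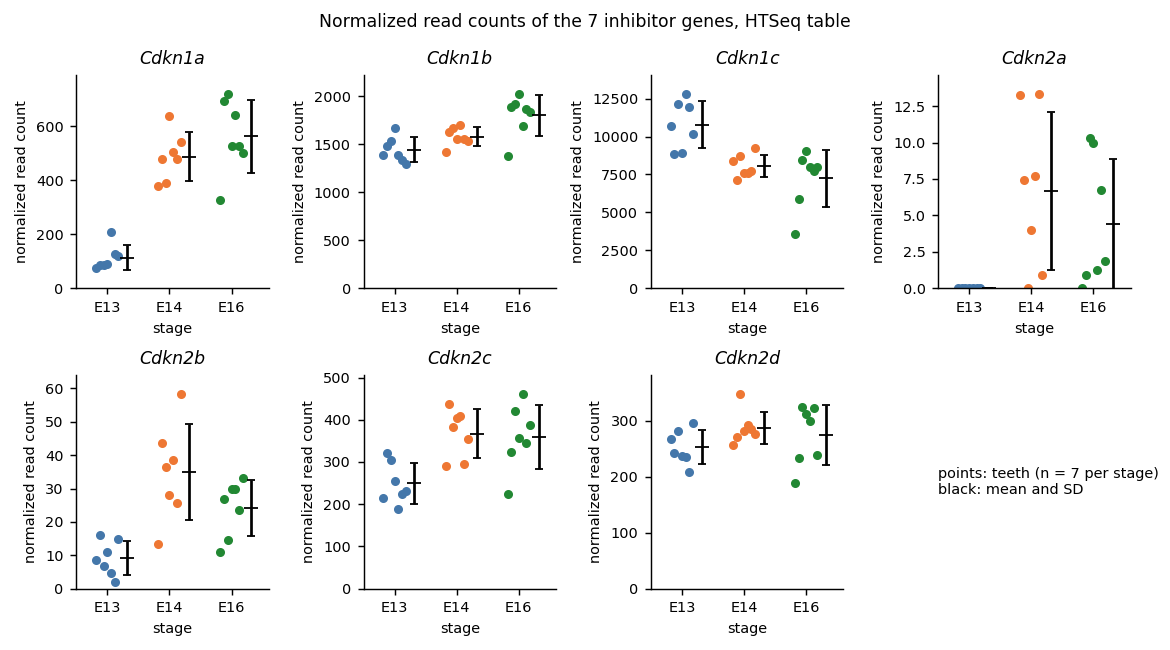
Normalized read counts (vertical axes, linear and starting at 0) of the 7 inhibitor genes at E13, E14, and E16 (horizontal axes). Colored points are teeth, 7 per stage, and black marks are means with SD. The E14 and E16 teeth of Cdkn1a lie above all E13 teeth, Cdkn2a is at 0 in all E13 teeth, and Cdkn1b and Cdkn2d overlap between all stages.

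RefSeq (GRCm38.p6) lists 2 starts for Cdkn1a. Their promoter windows, from 250 bases before to 50 after the start, are shown because Cdkn1a and Cdkn2b had the largest changes of the family, and the window of Cdkn2b is given with them. Capitals mark the motifs searched on both strands: paired cores of the p53 response element (CATGNNNNNNCATG), GC boxes (GGGCGG), and TATAA or its reverse complement.
Cdkn1a, chr17:29090729-29091028, plus strand: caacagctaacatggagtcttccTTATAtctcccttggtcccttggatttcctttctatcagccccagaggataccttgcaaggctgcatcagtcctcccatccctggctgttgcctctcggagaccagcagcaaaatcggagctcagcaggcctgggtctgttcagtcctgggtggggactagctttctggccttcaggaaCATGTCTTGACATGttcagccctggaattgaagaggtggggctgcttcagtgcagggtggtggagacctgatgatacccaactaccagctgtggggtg
Cdkn1a, chr17:29093519-29093818, plus strand: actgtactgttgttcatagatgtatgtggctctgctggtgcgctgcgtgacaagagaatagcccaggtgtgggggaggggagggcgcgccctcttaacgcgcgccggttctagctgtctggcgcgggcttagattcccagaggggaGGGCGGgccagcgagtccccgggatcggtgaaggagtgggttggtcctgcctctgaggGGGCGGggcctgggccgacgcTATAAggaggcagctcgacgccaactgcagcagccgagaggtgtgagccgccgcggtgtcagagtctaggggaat
Cdkn2b, chr4:89310983-89311282, minus strand: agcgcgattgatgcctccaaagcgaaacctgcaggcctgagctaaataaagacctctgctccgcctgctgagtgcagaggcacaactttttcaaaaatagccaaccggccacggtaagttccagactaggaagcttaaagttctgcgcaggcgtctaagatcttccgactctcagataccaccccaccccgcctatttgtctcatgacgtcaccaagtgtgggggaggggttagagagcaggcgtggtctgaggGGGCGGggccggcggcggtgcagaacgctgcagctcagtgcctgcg
The paired cores occur in 0.712% of the 32851 RefSeq windows of this length, GC boxes in 35.7%, and TATAA in 24.9%. Among the 9 windows of the 6 inhibitor genes matched by symbol, the paired cores occur only in the upstream Cdkn1a window. These matches describe letters and were not tested for binding.

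Cdkn1b (p27), an inhibitor found in many cells that leave the cell cycle, varied least between teeth. Its normalized read count was 1290 at the lowest, 1391 at the median, and 1667 at the highest at E13, 1421, 1559, and 1702 at E14, and 1378, 1864, and 2024 at E16. The stages overlapped, and the means rose from 1441 ± 130 (SD, n = 7) at E13 to 1801 ± 212 at E16. The log2 fold change was 0.13 (95% interval -0.03 to 0.29) from E13 to E14 and 0.32 (0.16 to 0.47) from E13 to E16, and only the latter passed the test (edgeR, adjusted p = 0.25 and 0.0019). From E14 to E16 it was 0.18 (edgeR, adjusted p = 0.076), and without the left tooth of embryo 3 at E16 it was 0.25 and passed (edgeR, adjusted p = 0.0018, between 0.0018 and 0.17 across the alternatives). With the embryo number as a replicate block, the E13 to E16 difference did not pass (0.18, edgeR, adjusted p = 0.18). The embryo numbers do not pair teeth of different stages, and embryos 9 and 10 occur only at E13, so this block is an arbitrary grouping. Lockd, a noncoding gene next to Cdkn1b, passed the test in none of the 3 comparisons.

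Cdkn1c (p57), an imprinted gene expressed mainly from the maternal allele, was the only one of the 6 tested genes to fall, and it had the highest level per length at every stage. Its normalized read count was 8858 at the lowest, 10719 at the median, and 12809 at the highest at E13, 7141, 7738, and 9221 at E14, and 3607, 7973, and 9030 at E16. At E13, 5 of 7 teeth were above every E14 and E16 tooth, and the other two overlapped both later stages. The mean was 10792 ± 1576 (SD, n = 7) at E13, 8054 ± 734 at E14, and 7246 ± 1873 at E16. From E13 to E14 the log2 fold change was -0.42 with an SE of 0.14 (edgeR, adjusted p = 0.034), that is, a level 1.34-fold lower at E14, and from E13 to E16 it was -0.58 (edgeR, adjusted p = 0.0017). From E14 to E16 it was -0.16 with a 95% interval from -0.45 to 0.13 (edgeR, adjusted p = 0.43).

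The E13 to E14 difference of Cdkn1c was close to the threshold. It did not pass without any 1 of 7 teeth, which were the left teeth of embryos 3 and 7 and the right tooth of embryo 9 at E13, and the right teeth of embryos 2 and 5 and both teeth of embryo 6 at E14, with log2 fold changes from -0.41 to -0.38 and adjusted p values from 0.056 to 0.072 (edgeR). With the teeth of an embryo summed it was -0.42 (edgeR, adjusted p = 0.060). With the replicate block, whose numbers do not pair teeth across stages, it was -0.47 (edgeR, adjusted p = 0.092). Without the left tooth of embryo 3 at E16, which is of neither stage compared, it was -0.43 (edgeR, adjusted p = 0.000801). That tooth enters through the shared estimate of spread, the filter, and the adjustment over genes. Without it 19238 genes were tested in place of 19101, and 5855 in place of 3767 were called. Over all alternatives the adjusted p ranged from 0.00057 to 0.092. Gm44732, an antisense gene overlapping Cdkn1c, had 7.62 to 113 normalized reads per tooth and passed the test in no comparison, and whether the counting used strand is not given in the sources used here.

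Of the 9 tested genes listed from the imprinted region of chromosome 7 that holds Cdkn1c, only Cd81 passed between E13 and E14. Cd81, a tetraspanin gene, was at 0.42 on the log2 scale (edgeR, adjusted p = 0.0048). Over all genes, 19.7% passed in that comparison. Cd81 and Slc22a18 were higher and Tssc4 and Nap1l4 lower at E16 than at E13, where 21.6% of all genes were higher and 19.6% lower. H19 and Kcnq1ot1, noncoding RNAs of this wider region, had E13 to E14 log2 fold changes of -0.06 and -0.08 (edgeR, adjusted p = 0.76 and 0.71).

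Cdkn2a, which encodes both p16Ink4a and p19Arf from alternative starts, was at the limit of detection. It received 0 of 155927761 reads in the E13 teeth, 48 of 170731459 in the E14 teeth, and 35 of 169904790 in the E16 teeth, with reads in 6 of 7 teeth at both later stages. The normalized read counts were 0, 7.45, and 13.3 at the lowest, median, and highest at E14, and 0, 1.90, and 10.3 at E16. A count of 0 allows up to 3 reads in the E13 group, and the observed level was 14.6 times this floor at E14 and 10.7 times at E16. This floor covers counting error of the E13 group only. The error of the E14 and E16 counts does not enter these ratios, so they are not lower bounds. The gene did not pass the filter on low counts, and its CPM values, counts scaled by library size, were compared in exact permutation tests over all 3432 splits of the teeth, two-sided. The difference was 0.285 CPM at E14 and 0.191 CPM at E16 relative to E13, each with an adjusted p = 0.0070 by this exact test, and -0.0938 CPM between E14 and E16 (exact permutation test, adjusted p = 0.41). These p values were adjusted over the 3 comparisons of this gene only. Each tooth entered as a unit, and no version per embryo was run. At E16 the teeth of embryo 6 held 12 and 11 reads and those of embryo 8 held 8 and 2. The E16 teeth of embryos 3, 5, and 7 held 0, 1, and 1. At E14 the teeth of embryo 6 held 8 and 14 reads, and the other E14 teeth 0 to 13. The reads of both products cannot be separated in counts per gene. Both tested neighbours of Cdkn2a and Cdkn2b were near the threshold. Elavl2, a neuronal RNA-binding protein gene, was at -0.53 from E13 to E14 (edgeR, adjusted p = 0.048) and passed in 8 of 28 alternatives, with an adjusted p up to 0.27, and Mtap, a methionine salvage gene, was at -0.34 from E14 to E16 (edgeR, adjusted p = 0.040) and passed in 9 of 28, with an adjusted p up to 0.083.

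Cdkn2b (p15Ink4b), the INK4 gene known to be induced by Tgfβ, was low but rose by almost as much as Cdkn1a in the HTSeq counts. Its normalized read count was 1.96 at the lowest, 8.48 at the median, and 16.1 at the highest at E13, 13.3, 36.3, and 58.3 at E14, and 10.9, 26.8, and 33.3 at E16. Only 1 E14 tooth was within the range of E13, as were 2 E16 teeth, the left tooth of embryo 3 and the right tooth of embryo 6. The log2 fold change was 1.95 with an SE of 0.38 from E13 to E14 (edgeR, adjusted p = 0.00063) and 1.41 with an SE of 0.38 from E13 to E16 (edgeR, adjusted p = 0.0045). Between E14 and E16 it was -0.54 with a 95% interval from -1.26 to 0.18 (edgeR, adjusted p = 0.27). The E13 to E14 step exceeded the second by 2.48 on the log2 scale (edgeR contrast of the 2 steps, adjusted p = 0.0065). With the replicate block, whose numbers do not pair teeth across stages, the E13 to E16 difference did not pass (1.17, edgeR, adjusted p = 0.062).

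Cdkn2c (p18Ink4c), an inhibitor of Cdk4 and Cdk6, also rose with the cap stage. Its normalized read count was 189 at the lowest, 232 at the median, and 321 at the highest at E13, 290, 383, and 437 at E14, and 223, 358, and 461 at E16. The stages overlapped, with 2 E13 teeth within the range of E14. The log2 fold change was 0.56 with an SE of 0.14 from E13 to E14 (edgeR, adjusted p = 0.0063) and 0.52 with an SE of 0.14 from E13 to E16 (edgeR, adjusted p = 0.0043). With the replicate block, whose numbers do not pair teeth across stages, neither passed (0.50 and 0.46, edgeR, adjusted p = 0.10 and 0.097). Between E14 and E16 the log2 fold change was -0.04 with a 95% interval from -0.32 to 0.25 (edgeR, adjusted p = 0.88).

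Cdkn2d (p19Ink4d), the remaining inhibitor of Cdk4 and Cdk6, did not pass the test in any comparison. Its normalized read count was 209 at the lowest, 242 at the median, and 297 at the highest at E13, 256, 282, and 348 at E14, and 189, 300.4, and 324 at E16. All 3 stages overlapped. The 95% intervals of the log2 fold change were -0.05 to 0.42 from E13 to E14, -0.31 to 0.17 from E14 to E16, and -0.12 to 0.35 from E13 to E16.

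Counted together, 4 of the 6 tested inhibitor genes passed the test between E13 and E14, 3 higher and 1 lower, where 19.7% of the 19101 tested genes passed, 11.3% higher and 8.47% lower. Between E14 and E16 edgeR called 0 of 6, where 28.1% of all genes passed (15% higher and 13.1% lower), and 1 of the 6, Cdkn1b, had an unadjusted p below 0.05. DESeq2 also called 0 of 6, beside 23.4% of its genes. Between E13 and E16, 5 of 6 passed, 4 higher and 1 lower, beside 41.3% of all genes, 21.6% higher and 19.6% lower. These comparisons share teeth. With HTSeq counts, 2 of 6, Cdkn1a and Cdkn2b, passed a test of the difference between the E13 to E14 and E14 to E16 steps. That test was passed by 13.7% of all genes.

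**Figure D2:**
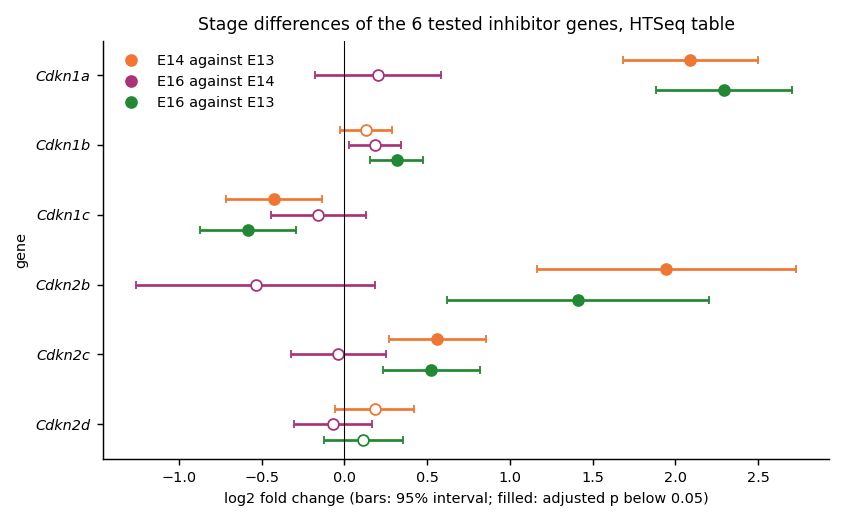
Log2 fold changes (horizontal axis) of the 6 tested inhibitor genes (vertical axis) between stages, with 95% intervals from the edgeR fit of 21 libraries. Filled points passed an adjusted p below 0.05. Cdkn1a and Cdkn2b lie near 2 in the comparison of E14 with E13, and all 6 genes are open in the comparison of E16 with E14.

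Levels were compared between genes only per kilobase of exon. Cdkn1c was first at every stage, with 5293 ± 773 (SD, n = 7) normalized reads per kilobase at E13, 3950 ± 360 at E14, and 3554 ± 919 at E16, and Cdkn1b was second with 317 ± 28.6, 347 ± 20.8, and 396 ± 46.5. At E13 no neighbours in the order Cdkn1c, Cdkn1b, Cdkn2d, Cdkn2c, Cdkn1a, Cdkn2b, and Cdkn2a overlapped in their ranges over teeth in the HTSeq table. The E13 place of Cdkn1a turned with the table: with salmon counts it had 93.5 normalized reads per kilobase (77.9 to 124 over 7 teeth) against 86.4 (66.7 to 112) for Cdkn2c, in place of 32.1 against 92.7. At E14 and E16 Cdkn1a was in the fourth place with HTSeq counts, with 137 ± 25.3 and 158 ± 38.0 normalized reads per kilobase. Its range overlapped those of Cdkn2d (183 ± 18.4 and 175 ± 33.8) and Cdkn2c (137 ± 21.2 and 134 ± 28.3), as did those of Cdkn2b and Cdkn2a with each other. The overlap with Cdkn2c at E16 also turned with the table. With salmon counts Cdkn1a had 227 (187 to 269 over 7 teeth) against 126 (87.4 to 160) for Cdkn2c, without overlap. Of the summed TPM of the 7 genes, a measure of transcripts scaled by length and library size, Cdkn1c made up 89.5% ± 1.79 (SD, n = 7) in the E13 teeth, 82.5% ± 1.91 in the E14 teeth, and 79.5% ± 2.96 in the E16 teeth. Over the same stages, the share of Cdkn1a was 0.537% ± 0.165, 2.89% ± 0.601, and 3.65% ± 0.807, and that of the 4 INK4 genes together 4.49% ± 0.909, 7.35% ± 0.867, and 7.55% ± 0.743. The summed TPM itself was lowest in the E16 right tooth of embryo 7, at 179 beside a mean of 542 over the E16 teeth. The shares use HTSeq counts, and the rise of Cdkn1a depends on the table. Among the 5 genes of both tables its share was 0.552% ± 0.168 at E13 and 3.81% ± 0.846 at E16 with HTSeq, but 1.69% ± 0.258 and 5.70% ± 1.72 with salmon (SD, n = 7).

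**Figure D3:**
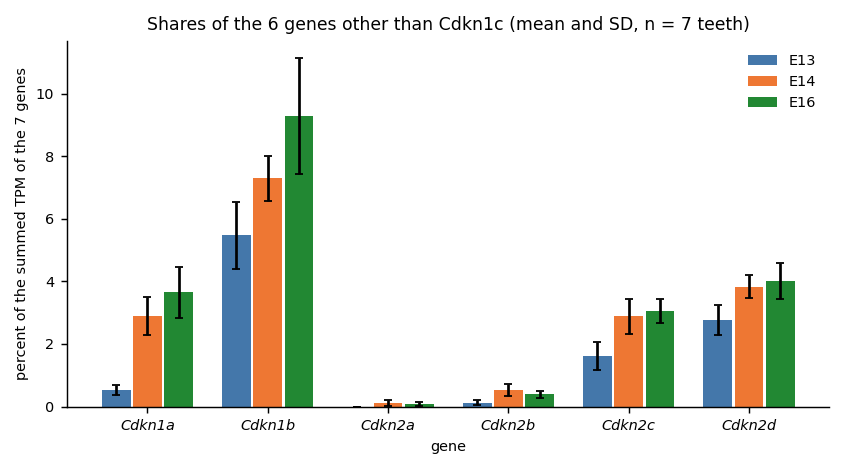
Percent of the summed TPM of the 7 inhibitor genes (vertical axis, starting at 0) taken by each gene other than Cdkn1c (horizontal axis), as mean bars with SD over 7 teeth at E13, E14, and E16. The Cdkn1a bars rise from 0.537% at E13 to 2.89% at E14 and 3.65% at E16 with the HTSeq counts plotted; salmon counts, over 5 genes, gave 1.69% at E13 and 5.70% at E16.

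Teeth of a stage differed in the inhibitor genes by different amounts. The biological coefficient of variation of the edgeR fit of HTSeq counts was 10.9% for Cdkn1b, 14.8% for Cdkn2d, 18.2% for Cdkn2c, 18.8% for Cdkn1c, 24.3% for Cdkn1a, and 39.9% for Cdkn2b. For Cdkn1a the dispersion was 1.92 times that of the trend for genes of its abundance, a ratio reached by 7.45% of genes, and for Cdkn1b it was 0.506 times. The spread of Cdkn1a depended on the table. With salmon counts its dispersion was 0.535 times the trend, a ratio reached by 80.3% of genes. Its coefficient was then 14.7%, below those of Cdkn1c (21.7%) and Cdkn2c (24.2%). The left and right teeth of an embryo, available for 1 embryo at E14 and 2 at E16, differed in Cdkn1c by 1.02-, 1.07-, and 1.03-fold and in Cdkn1a by 1.05-, 1.36-, and 1.05-fold.

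In the salmon table, whose E15 teeth lie between the stages above, Cdkn1a increased from E13 to E16 through E15. The normalized estimated count was 277 to 440 at E13, 472 to 634 at E15, and 664 to 955 at E16, with medians of 324, 537, and 792. No tooth of a stage overlapped with another stage. The log2 fold change was 0.75 with an SE of 0.11 from E13 to E15 (edgeR, adjusted p = 2.2e-05) and 0.55 with an SE of 0.11 from E15 to E16 (edgeR, adjusted p = 0.0030). Between E13 and E15, 3 of the 5 listed genes passed, all higher, beside 26.8% of 13447 genes (18.3% higher and 8.49% lower). Between E15 and E16 only Cdkn1a did, beside 6.33% (3.64% higher and 2.69% lower). Between E13 and E16 all 5 passed, beside 36.4% (21.7% higher and 14.7% lower).

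The 2 others that passed between E13 and E15 were Cdkn1b, with 1257 to 1621 normalized estimated counts at E13 and 1447 to 2027 at E15 (log2 fold change 0.40, edgeR, adjusted p = 0.00076), and Cdkn2b, with 1.96 to 15.9 and 9.48 to 66.7 (1.89, edgeR, adjusted p = 0.0028). Cdkn1c had 8480 to 12392 at E13 and 5117 to 10805 at E15 and did not pass (-0.39, edgeR, adjusted p = 0.098, between 0.036 and 0.39 across the alternatives). It passed without the left tooth of embryo 8 at E15 (-0.50, edgeR, adjusted p = 0.036), without the left tooth of embryo 3 at E16 (-0.39, adjusted p = 0.040), and with DESeq2 (-0.43, adjusted p = 0.048).

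Cdkn2c differed within E15 along the mitochondrial share. It had 314 to 332 normalized estimated counts in the 3 E15 libraries with under 5% mitochondrial reads, and 130 to 214 in the 3 others, and these did not overlap. Against E13, the log2 fold change was 0.14 with all E15 libraries (edgeR, adjusted p = 0.63), 0.53 with the former only (adjusted p = 0.031), and -0.38 with the latter only (adjusted p = 0.12). The part of the mitochondrial share in this was not tested.

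The 2 tables gave different counts for Cdkn1a in the same teeth. At E13, HTSeq counted 78 to 219 reads and salmon 249 to 469, and the sum over the 7 teeth was 2.92 times higher with salmon, whereas at E16 they gave 301 to 837 and 641 to 1109, a ratio of 1.43. The difference was 171 to 250 reads per tooth at E13 (mean 212 ± 31.1, SD, n = 7) and 176 to 340 at E16 (258 ± 60.2). For the other 4 genes of both tables the ratio was between 0.940 and 1.00. The E13 to E16 log2 fold change of Cdkn1a was 2.29 with HTSeq counts and 1.30 with salmon counts, in each case past the threshold (edgeR, adjusted p = 1.1e-09 and 2.1e-09). A difference this large between the tables occurred in 0.690% of 12897 genes, and the median absolute difference was 0.0377. The E14 fold change of Cdkn1a could not be compared, since the salmon table has no E14 teeth. The GENCODE annotation places an antisense gene, AC167363.2, within Cdkn1a, and this gene is not a row of the HTSeq table. Its part in the difference was not tested.

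**Figure D4:**
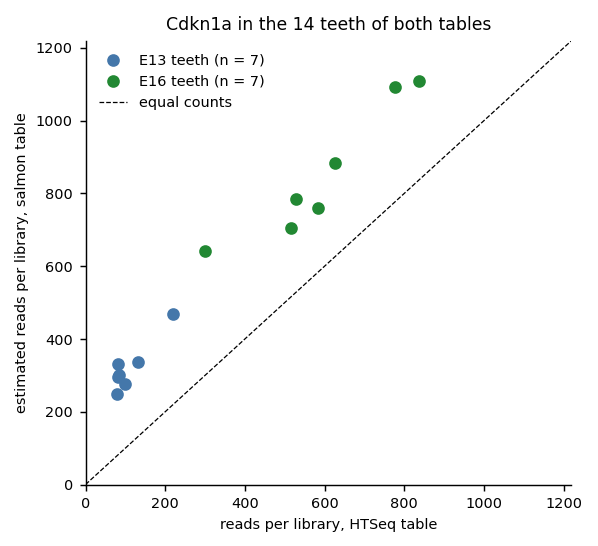
Reads of Cdkn1a per library in the HTSeq table (horizontal axis) and in the salmon table (vertical axis), on linear axes from 0, for the 14 teeth of E13 and E16. Points are teeth, and the dashed line marks equal counts. All 14 teeth lie above the line, by 171 to 340 reads.

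Cyclins and kinases, on which the inhibitors act, were mostly lower at E16 than at E14. Over all genes, 11.3% were higher and 8.47% lower from E13 to E14, and 15% were higher and 13.1% lower from E14 to E16. Of 6 cyclins of the G1 and S phases, Ccnd2, Ccne2, and Ccna2 were higher at E14 than at E13 (edgeR). Ccnd2, Ccnd3, Ccne1, and Ccna2 were lower at E16 than at E14. Ccnd2, a D-type cyclin that activates Cdk4 and Cdk6, changed by 0.71 and then by -0.84 on the log2 scale (edgeR, adjusted p = 0.00021 and 1.7e-05). Of the 4 kinases, Cdk6 was higher at E14 (0.37, edgeR, adjusted p = 0.0063), and Cdk1 and Cdk2 fell from E14 to E16, with log2 fold changes of -0.49 and -0.28 (edgeR, adjusted p = 0.00021 and 0.0013). Cdk4 was at -0.26 (edgeR, adjusted p = 0.039) and passed in only 9 of 28 alternatives, with an adjusted p up to 0.11. Of 13 pocket proteins and E2F factors, Rbl1 was higher (0.21) and Tfdp2 lower (-0.26) at E14 than at E13. From E14 to E16, Rb1 (0.37) and Rbl2 (0.23) rose and E2f3 (-0.45), E2f6 (-0.39), Tfdp1 (-0.38), and Rbl1 (-0.22) fell, Rb1 being the retinoblastoma gene itself. Of these, Ccne2 and Rbl1 from E13 to E14 passed in 22 of 28 alternatives each, and Rbl1 and Rbl2 from E14 to E16 in 23 and 16, and the other cyclins, pocket proteins, and E2F factors named passed in all 28. The median log2 fold changes of the cyclins, the kinases, and the pocket proteins and E2F factors were 0.21, 0.09, and 0.05 from E13 to E14 and -0.48, -0.27, and -0.22 from E14 to E16, where those of all genes were -0.01 and 0.00.

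**Figure D5:**
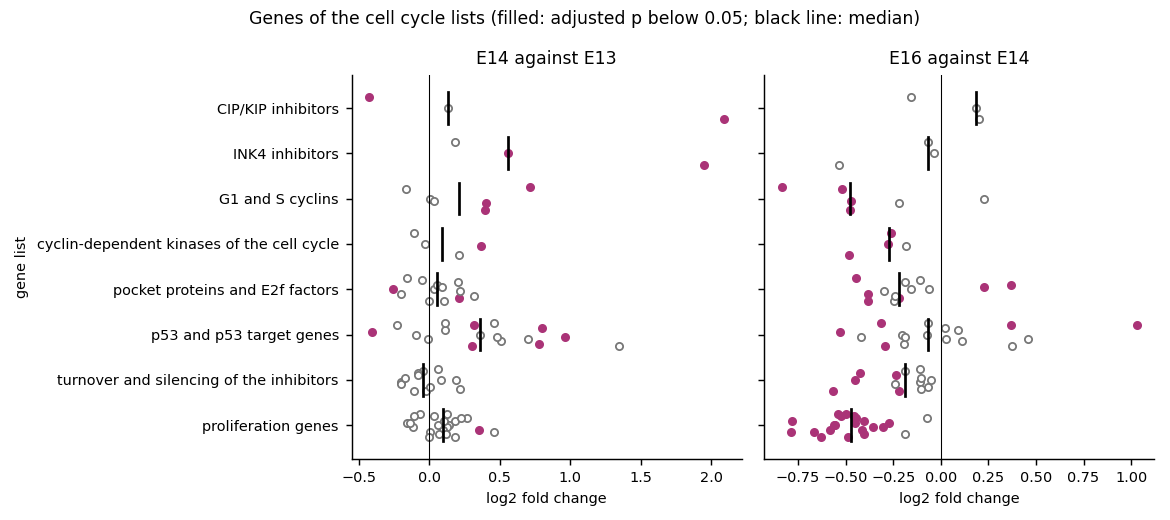
Log2 fold changes (horizontal axes) of the genes of 8 lists (vertical axis) from E13 to E14 and from E14 to E16. Points are genes, filled where the adjusted p was below 0.05, and black lines are medians. The proliferation genes lie around 0 at the former step and to the left of 0 at the latter, at a median of -0.47.

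Proliferation genes, which cells use to replicate and divide, mostly fell after the cap stage. Of 22, only Mki67, an antigen of cycling cells, passed between E13 and E14, 0.35 higher on the log2 scale (edgeR, adjusted p = 0.013). At E16, 20 were lower than at E14. Among all genes, 11.3% were higher at E14 than at E13, and 13.1% were lower at E16 than at E14. Of the 20, Cdc20, which activates the anaphase-promoting complex, was lower by 0.79 and Rrm2, which makes deoxynucleotides, by 0.78 (edgeR log2 fold changes of -0.79 and -0.78). Of 13 genes for the turnover and silencing of the inhibitors, edgeR and DESeq2 called 0 between E13 and E14, while Cks1b, Skp1a, Cul4a, and Rbx1, 4 in number, had an unadjusted edgeR p below 0.05. From E14 to E16, Skp2, Cks1b, Dtl, Bmi1, and Ezh2 were lower, led by Skp2 (-0.56, edgeR, adjusted p = 1.4e-07), which marks p27 for degradation. The call of Bmi1 (-0.22, edgeR, adjusted p = 0.033) was met in 9 of 28 alternatives, with an adjusted p up to 0.11, and Bmi1 and Ezh2 are Polycomb genes that silence the Cdkn2a locus.

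Of the 17 tested genes of p53 and its targets, 5 were higher (Btg2, Fas, Phlda3, Ccng1, and Aen) and 1 lower (Plk2) at E14 than at E13, where 11.3% of all genes were higher and 8.47% lower. Btg2, an antiproliferative gene, rose by 0.96, the death receptor gene Fas by 0.80, and Phlda3, an inhibitor of Akt, by 0.78 on the log2 scale (edgeR, adjusted p from 0.00018 to 0.022), while Plk2, a polo-like kinase gene, fell by 0.40. Ccng1 was at 0.32 (edgeR, adjusted p = 0.043) and passed in 13 of 28 alternatives, with an adjusted p up to 0.20. From E14 to E16, where 15% of all genes were higher and 13.1% lower, 2 of the 17 were higher (Trp53inp1 and Ccng1) and 3 lower (Plk2, Tnfrsf10b, and Aen), of which Tnfrsf10b passed in 6 of 28 alternatives. Trp53 itself was at 0.48 and did not pass (edgeR, adjusted p = 0.059), and Mdm2, the ubiquitin ligase of p53, was at 0.11 (adjusted p = 0.22).

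Most enamel knot genes rose at the cap stage. Of 15, 13 were higher at E14 than at E13, with a median log2 fold change of 1.60, led by Fgf3 (6.45), Dkk4 (6.11), Fgf4 (4.13), and Shh (3.75), which encode signals secreted by the knot. From E14 to E16, 7 of the 15 were higher and 3 lower, with a median of 0.38. Of all genes, 11.3% were higher and 8.47% lower from E13 to E14, and 15% were higher and 13.1% lower from E14 to E16. Msx2, a homeobox gene, rose by 2.15, the ectodysplasin receptor gene Edar by 1.55, and Shh by 1.46 on the log2 scale, while Fgf4 fell by 1.68, Fgf20 fell by 1.53, and Fgf3 fell by 0.94. All 7 dental epithelium markers were higher at each step, by a median of 0.60 and 0.94, and of the 7 mesenchyme markers 2 and then 6 were lower, by a median of -0.18 and -0.78. None of these markers was at 0 in all teeth of a stage.

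Markers of other tissues that a dissected tooth germ could hold also moved with stage. The summed normalized read count of 8 markers of differentiating surface epithelium was 296 to 367 at E13, 542 to 799 at E14, and 12761 to 28377 at E16, and Cnfn was at 0 in all E13 and E14 teeth. That of 6 macrophage markers was 519 to 975, 979 to 1360, and 947 to 2231, that of 6 endothelial markers 5635 to 7253, 7161 to 9218, and 4099 to 10867, and that of 6 cartilage markers 3742 to 4868, 1607 to 4050.2, and 751 to 1101. Red cell markers were at 5529 to 10260.3, 2740 to 4281, and 913 to 2711, and skeletal muscle markers reached 6287 in 1 E13 tooth, with a median of 312. The 7 osteoblast markers summed to 3231 to 9459, 3928 to 20904, and 4392 to 10952, and the 8 markers of Schwann cells and neurons to 1218 to 1808, 1399 to 1932, and 1317 to 2355, ranges that overlapped between all stages. The part of these tissues, and of the epithelium and mesenchyme, in the differences of the inhibitor genes was not tested.

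The protein-coding genes whose log2 levels over the 21 libraries were closest to those of each inhibitor, by root mean square difference after centering, were found for the 5 that passed in any comparison. For Cdkn1a they were Stac, Prdm1, and Wnt10a, the last a signal of the enamel knot list, at 0.322 to 0.351, beside an SD of 1.14 for Cdkn1a itself. For Cdkn2b they were Epha2, Capg, and Itga6 (0.575 to 0.585, SD 0.995), and for Cdkn1c they were Lmo4, Fat4, and Cdh2 (0.160 to 0.179, SD 0.390). For Cdkn1b they were Pip4k2a, Twsg1, and Cblb (0.103 to 0.106, SD 0.184), and for Cdkn2c they were Zfp853, Pde4b, and Icam1 (0.188 to 0.197, SD 0.372). The libraries share stages, so these values describe likeness over stages and depth as well as between teeth.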

How the data were processed

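RNAseq libraries of single molar tooth germs were grouped by the stage in their labels, with replicates numbered in the order of the samples. The authors filtered 84 bp reads, aligned them with STAR to GRCm38 (Ensembl release 90), and deposited raw counts per gene made with HTSeq, and a table of estimated counts made with salmon (version 0.99.0, per the submitters' processing notes), in whole numbers. The name of 1 column of the HTSeq table was matched to its tooth with X read as 10.

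Counts were tested in edgeR (version 4.0.16) by its quasi-likelihood method with TMM factors and filterByExpr, with stage as the only factor, in 1 fit of 21 HTSeq libraries (19101 genes tested) and 1 of 20 salmon libraries (13447 genes tested), with Benjamini-Hochberg adjustment over all genes tested and a threshold of 0.05. Levels are counts divided by DESeq2 (version 1.42.0) size factors, and TPM was computed from counts and exon lengths of the GENCODE M21 annotation, in which 147 identifiers are absent. Intervals are at 95%. The p values of the exact tests of Cdkn2a were adjusted over their 3 comparisons only. The depth was 17814073 to 27115729 counts per HTSeq library. Embryo numbers did not pair the teeth of different stages (mean correlation 0.0377 over 15 same-numbered pairs). No 2 teeth agreed within sampling noise, and teeth of 1 embryo were kept as separate replicates.

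The 7 genes and the gene lists were chosen with earlier results of these data known. All 7 are named in each comparison, with up to 4 called genes per list by size of change and the 3 genes most alike per inhibitor; Trp53, Mdm2, H19, Kcnq1ot1, and the genes behind counts of 5 or fewer were added after their values were seen. Alternatives were other scaling, DESeq2, no filter, teeth of an embryo summed, side or embryo number as an added factor, only 2 stages, the salmon table, and each tooth left out, and those on E15 libraries by mitochondrial share, the salmon levels per length and shares, and the exact tests of Cdkn2a were chosen after seeing the data.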

Additional observations from a re-analysis of the deposited data

Results flagged for a closer look

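In 35 groups of 6 or 7 teeth, 3 values were separated from the others of their group by more than Dixon's criterion at the 95% level, which chance gives in about 1 of 20 groups. Cdkn1a in the left tooth of embryo 7 at E13 had 207 normalized reads in the HTSeq table and 440 in the salmon table, where the next highest teeth had 129 and 336, and both values come from the same library. Cdkn2d in the right tooth of embryo 3 at E14 had 348 normalized reads, with 292 in the next highest tooth.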

How the results depend on the processing

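Of the 1014 values of the inhibitor genes recomputed under alternatives, 982 were classed as kept. For differences between stages, kept means the same direction and side of the threshold. Mean levels were classed as kept when they moved by no more than the SD over teeth. Counts of genes that passed were classed as kept also when they changed by a small ratio. Of the rest, 9 differences changed sign, 13 lost and 6 gained a pass, and 4 levels or counts moved further. With the embryo number as a replicate block, 2 inhibitor genes passed between E13 and E14 in place of 4, and 2 in place of 5 between E13 and E16, with Cdkn1c at -0.47 and Cdkn2c at 0.50 no longer past the threshold in the former and Cdkn1b at 0.18, Cdkn2b at 1.17, and Cdkn2c at 0.46 in the latter (edgeR log2 fold changes). The numbers do not pair the teeth across stages. With the teeth of an embryo summed, Cdkn1c between E13 and E14 was at -0.42 and no longer past the threshold, and with each tooth left out in turn its value ranged from -0.47 to -0.38. Without the left tooth of embryo 3 at E16, 1 gene in place of 0 passed between E14 and E16, Cdkn1b at 0.25. Over leave-one-out settings between E14 and E16, Cdkn1b ranged from 0.17 to 0.25, Cdkn2c from -0.089 to 0.066, and Cdkn2d from -0.10 to 0.017, and both of these changed sign. Cdkn1c between E13 and E15 was at -0.43 with DESeq2 and ranged from -0.50 to -0.30 with teeth left out. With only the E15 libraries under 5% mitochondrial reads, Cdkn2c between E13 and E15 was at 0.53, and Cdkn1b and Cdkn1c between E15 and E16 were at 0.025 and 0.028 with a changed sign. With only those of at least 5%, 2 genes in place of 1 passed between E15 and E16, with Cdkn2c at 0.94, and Cdkn2c between E13 and E15 was at -0.38. Over all genes, the count called between E13 and E14 was 3767, against 1677 with the replicate block and 5855 without the left tooth of embryo 3 at E16, that between E13 and E16 was 7887, against 5210 with the block, that between E13 and E15 was 3599, against 6088 with only the E15 libraries of at least 5% mitochondrial reads, and that between E15 and E16 was 851, against 2828 with only these and 1382 without the left tooth of embryo 3 at E16. The cause of these changes was not tested, except that fewer teeth enter the fits that leave teeth out. The replicate block also adds terms to the fit. Depth limits Cdkn2a and Cdkn2b, whose highest counts were 14 and 64 reads in a tooth.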
